A study of Mus musculus with 617 samples.

Results

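Cell cycle phase genes are genes whose transcripts peak while a cell copies its DNA (S phase) or while it prepares for and passes through division (G2 and mitosis, G2/M). The members were taken by symbol from lists of phase genes, 26 for S phase and 33 for G2/M, and all 59 were found among the 43628 Ensembl mouse gene IDs that each of the 4 deposited tables holds. They were followed in 617 single mouse cells of 13 groups, by mean level, by share of expressing cells (at least 1 FPKM, a fragment count scaled to gene length and to the library) and by S level against G2/M level of each cell.

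Of the 13 groups, 9 were cultures from a female and a male embryonic stem (ES) cell line of the cross male CAST/EiJ x female C57BL/6J. ES cells in 2i and LIF, a medium that holds the naive ground state, numbered 60 female and 51 male. In serum and LIF there were 68 female and 52 male cells. Epi cells, a primed stem cell state grown from the same lines in Activin A and FGF2, numbered 79 female and 63 male, and 41 more female cells had passed 7 passages and sat in a table of their own. Motor neuron (MN) cultures came from the lines by way of embryoid bodies with retinoic acid and the agonist SAG and numbered 39 female and 35 male cells. That protocol aims at neurons that no longer divide and also gives interneurons. Embryo cells of the same cross were 23 from the inner cell mass at E3.5 and 23 from the epiblast at E4.5, with no sex labelled. The E5.5 epiblast cells came from C57BL/6J x C57BL/6J embryos, 20 female and 63 male. No group carried a gene deletion or a transgene per the labels, and how many embryos gave the cells is not stated there. Each line is 1 line of 1 sex, so line and sex cannot be told apart, and each culture was entered once.

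Cells had a median of 8122 (E3.5) to 10839.5 (E5.5 female) genes detected, that is, at 1 FPKM or above. Read depth per cell is unknown because only FPKM was used. The median FPKM sum per cell was 793153 to 961113 in ES and Epi cells of the main table and 1332433 and 1478624 in the female and male MN cultures. Cell labels were set against marker genes. The female Epi culture of the main table held 6 naive markers at a summed mean of 199 FPKM, against 218 in female serum cells, 11.9 in male Epi and 4.28 in the 7-passage female Epi culture. Its primed markers summed to 162.8 FPKM, against 536 in male Epi, so the library labelled female Epi carried naive markers at the serum level. The MN cultures had all 8 neuron markers at 1 FPKM or more, but also 7 (female) and 6 (male) of 8 endoderm markers, led by Sox17 at 89.5 and 346 FPKM. In the female E5.5 group the endoderm markers summed to 2342 FPKM, against 650 in the male group. The trophectoderm markers, led by Krt8 or Krt18, summed to 1282 FPKM in 7-passage Epi, 1208 at E4.5, and 789 and 547 in female and male MN cultures. In each other group they summed to at most 409 FPKM. Decidua markers summed to 46.7 FPKM in female and 4.80 in male E5.5 cells, and to 113.3 and 2.91 in female and male MN cultures.

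Cells pass a fixed order of events: licensed origins fire and DNA is copied in S phase, then the mitotic kinase built of Cdk1 and a B-type cyclin drives entry into mitosis, and the anaphase-promoting complex ends it. In many cell types E2F factors act on the S phase genes, and the DREAM and MuvB complexes act on G2/M genes through a promoter element called the CHR. Pluripotent cells are known for a short G1 phase and a large share of cells in S phase, and neurons for having left the cycle.

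Promoter sequences were set beside the 2 member groups because the 2 groups followed separate levels across dividing cells, as given further on. RefSeq promoters (GRCm38.p6, 250 bases before to 50 after the start) were found for 50 of 59 members, 22 S and 28 G2/M. Mcm4, Gins2, Rfc2, Exo1, Tpx2, Smc4, Aurkb, Cdca2 and Dlgap5 had no entry. Both strands were searched for the CHR (TTTGAA), for CCAAT, and for 5 E2F spellings (TTTGGCGC, TTTCCCGC, TTTCGCGC, TTTGGCGG and TTTCCCGG). The CHR letters stood in 21 of 28 G2/M promoters (75%) and in 4 of 22 S promoters (18.2%), against 18.1% of all 27025 promoters. Within 60 bases before to 30 after the start the counts were 16 of 28 and 1 of 22, against 4.81% of all. An E2F spelling stood in 10 of 22 S promoters (45.5%) and in 2 of 28 G2/M promoters (7.14%, Birc5 and Cdk1), against 3.66% of all. CCAAT stood in 68.2% of S and 71.4% of G2/M promoters, against 37.9% of all. CHR and CCAAT together stood in 17 of 28 G2/M and 3 of 22 S promoters, against 7.12% of all. A match is a run of letters, and no binding was measured here. Spellings of the CHR other than TTTGAA were not searched.

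G2/M promoters with TTTGAA on either strand near the start, and that of Ccnb1 without these letters, are printed. The window runs from 130 bases before to 20 after the start. They read 5′ to 3′ on the gene's strand, with the CHR (TTTGAA, or TTCAAA on the other strand) and CCAAT (or ATTGG) in capitals. Ccnb2 encodes cyclin B2, Cdc20 an activator of the anaphase-promoting complex, Ube2c its ubiquitin-conjugating enzyme, Kif11 a spindle motor, Hmgb2 a chromatin protein and Ccnb1 cyclin B1.

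Ccnb2 (chr9:70421535-70421684, minus strand): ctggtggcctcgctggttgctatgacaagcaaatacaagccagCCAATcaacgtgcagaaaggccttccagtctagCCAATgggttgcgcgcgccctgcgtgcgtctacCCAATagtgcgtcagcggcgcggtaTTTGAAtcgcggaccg
Cdc20 (chr4:118437324-118437473, minus strand): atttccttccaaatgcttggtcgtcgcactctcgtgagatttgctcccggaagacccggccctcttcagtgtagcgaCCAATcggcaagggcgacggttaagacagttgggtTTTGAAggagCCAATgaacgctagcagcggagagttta
Ube2c (chr2:164769799-164769948, plus strand): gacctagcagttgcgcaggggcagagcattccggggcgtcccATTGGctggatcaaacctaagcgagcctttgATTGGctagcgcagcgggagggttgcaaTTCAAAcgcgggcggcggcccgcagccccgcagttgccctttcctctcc
Kif11 (chr19:37376252-37376401, plus strand): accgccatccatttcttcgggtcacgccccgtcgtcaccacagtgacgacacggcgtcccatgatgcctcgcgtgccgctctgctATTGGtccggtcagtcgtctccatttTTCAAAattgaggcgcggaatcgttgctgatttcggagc
Hmgb2 (chr8:57511713-57511862, plus strand): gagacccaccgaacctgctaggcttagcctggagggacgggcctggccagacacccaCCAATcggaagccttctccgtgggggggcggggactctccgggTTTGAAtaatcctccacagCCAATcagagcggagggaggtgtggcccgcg
Ccnb1 (chr13:100786467-100786616, minus strand): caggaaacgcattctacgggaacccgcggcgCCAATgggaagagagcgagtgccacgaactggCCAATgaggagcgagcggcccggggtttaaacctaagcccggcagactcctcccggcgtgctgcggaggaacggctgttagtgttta

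S promoters with E2F spellings are printed the same way, with E2F spellings and CCAAT in capitals on either strand. Mcm6 encodes a subunit of the replicative helicase, Dtl a ubiquitin ligase adaptor that guards against re-replication, and Cdca7 a partner of the chromatin remodeller encoded by Hells. They show the E2F letters of the S group, with no TTTGAA on either strand in the printed window of any of the 3.

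Mcm6 (chr1:128359686-128359835, minus strand): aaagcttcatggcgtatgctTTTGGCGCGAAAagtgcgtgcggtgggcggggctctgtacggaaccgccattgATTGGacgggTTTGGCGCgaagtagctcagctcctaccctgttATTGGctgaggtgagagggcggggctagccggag
Dtl (chr1:191575525-191575674, minus strand): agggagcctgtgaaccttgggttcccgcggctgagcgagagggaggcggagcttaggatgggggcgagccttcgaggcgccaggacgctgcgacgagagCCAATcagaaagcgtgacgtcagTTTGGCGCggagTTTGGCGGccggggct
Cdca7 (chr2:72476089-72476238, plus strand): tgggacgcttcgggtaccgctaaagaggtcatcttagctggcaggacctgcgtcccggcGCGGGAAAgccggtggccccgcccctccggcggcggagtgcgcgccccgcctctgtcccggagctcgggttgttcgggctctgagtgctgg

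Over the 767 pairs of a member and a group, 623 had the member at 1 FPKM or more in at least 90% of cells. In 2i, all 26 S members were at 1 FPKM or more in 60 of 60 female and 50 of 51 male cells, and all 33 G2/M members in 59 and 40 cells. In male Epi the counts were 35 and 32 of 63 cells, with Pola1 in 79.4% and Kif23 in 77.8% of cells. In the male MN culture the counts were 4 and 11 of 35 cells, and in the female one 13 and 15 of 39. FPKM is per length, and levels are set side by side between genes on that scale. Whether gene length still bears on them was not tested. The median of the 26 S members' mean levels was 92.4 to 116.5 FPKM in the 6 ES and Epi cultures of the main table, 57.2 and 58.5 in the MN cultures, 33.4 at E3.5, 35.7 at E4.5, and 158.7 and 173.4 in female and male E5.5 cells. For the 33 G2/M members it was 46.9 to 63.5 FPKM, 38.9 and 38, 29, 14.7, and 50.4 and 67.4 in the same order. Levels set across the tables include any difference in how each table was normalised.

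Hells, a chromatin remodeller needed for DNA methylation, had the highest mean level of the S members in every group except the MN cultures. Its mean ran from 331 FPKM in male Epi to 858 in male serum cells over the ES and Epi cultures. It was 155.8 FPKM at E3.5, 150.6 at E4.5, 671 and 769 in female and male E5.5 cells, and 240 and 107 FPKM in the female and male MN cultures. There Rrm2 (293.2 FPKM, female), a subunit of the enzyme that makes deoxynucleotides, and Slbp (245.9 FPKM, male), which binds histone mRNA ends, led. Pola1, an X-linked subunit of the polymerase that starts each new strand, was the lowest S member in 11 groups and Dtl in female 2i and serum cells. Cdk1 led the G2/M members everywhere but at E3.5. Mki67, which codes for the Ki-67 antigen of dividing cells, was the lowest of the G2/M members in all 13 groups, at 2.31 to 7.58 FPKM.

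The catalytic kinase Cdk1 averaged 520 ± 157.98 FPKM (SD over cells) in female and 474 ± 152.5 in male 2i cells. It averaged 477 ± 283.6 and 557 ± 269.4 in serum cells, and 544 ± 273.7 and 538 ± 351 in Epi cells. In MN cultures the means were 401 ± 380 and 543 ± 649 FPKM, with SDs near or above the means. The 7-passage Epi culture had 647 ± 398 FPKM, E3.5 cells 247.5 ± 150.8, E4.5 cells 143.1 ± 123.2, and E5.5 cells 710 ± 133.6 (female) and 739 ± 187.3 (male). Its regulatory partner Ccnb1 had its lowest means at E3.5 (11.5 FPKM) and E4.5 (13.6) and its highest at E5.5 (67.1 and 71.4). Pcna, the sliding clamp of DNA polymerase, ran from 19.5 ± 11.5 FPKM at E4.5 and 24.4 ± 12.1 at E3.5 over 60.9 ± 37.6 and 67.1 ± 49 in the male and female MN cultures to 151.5 ± 22.6 and 170.4 ± 32.5 at E5.5. With the groups ordered by each gene's mean, neighbours lay within the wider of their SDs. Relative to its mean, Cdk1 had its widest spread over cells in the MN cultures.

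**Figure D1:**
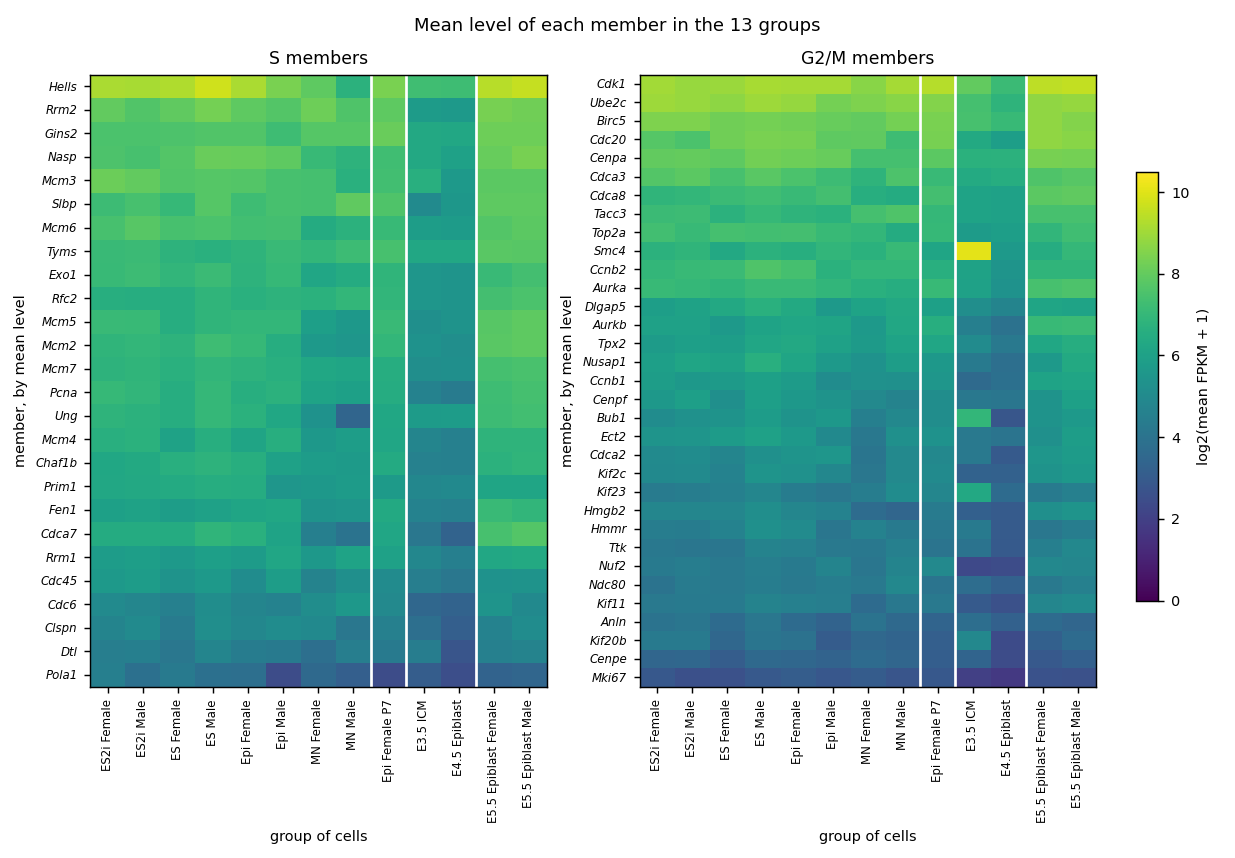
Mean level of each member in each group, as log2(mean FPKM + 1), with S members and G2/M members in separate blocks and the 13 groups side by side. Brighter cells are higher: the E3.5 and E4.5 columns are the darkest for most members and the E5.5 columns among the brightest, and the bright Smc4 cell at E3.5 is the mean that 1 cell set.

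In the E3.5 group 1 cell set several of these means. Smc4, a condensin subunit that compacts chromosomes, averaged 1085 FPKM there, of which that cell (23463 FPKM) gave 94%. Without it the mean was 67.5 FPKM. Bub1, a spindle checkpoint kinase, went from 122.8 to 9.71 FPKM and Kif23, a motor of cell cleavage, from 80.8 to 12.8. The cell had an FPKM sum of 7897578, against 483476 to 1143190 in the other 22, and 4662 genes at 1 FPKM or more. It had the highest value of its group for 16 of the 59 members, 3 of them S members.

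The share of cells with a member was lowest in the MN cultures. Mki67 was at 1 FPKM or more in 66.7% of female MN cells (exact Clopper-Pearson 95% interval 49.8 to 80.9%) and 51.4% of male ones (34 to 68.6%). Ung, which cuts uracil out of DNA, was there in 61.5% and 42.9% of cells (male interval 26.3 to 60.6%), and Cdca7 in 71.8% and 54.3%. In male Epi and 7-passage Epi cells, Pola1 had the lowest share of the S members, with 79.4% of male cells (67.3 to 88.5%) and 82.9% of the 7-passage female cells. These intervals cover counting of cells only.

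Each cell was given an S level and a G2/M level, the mean of log2(FPKM + 1) over the members of each group. Median S levels were 6.56 (female) and 6.55 (male) in 2i, 6.18 and 6.59 in serum, 6.44 and 6.14 in Epi, and 5.44 and 4.09 in MN cultures. They were 6.16 in 7-passage Epi, 4.88 at E3.5, 4.58 at E4.5, and 6.82 and 6.93 at E5.5. Median G2/M levels were 5.71 and 5.69 in 2i, 5.51 and 5.98 in serum, 5.79 and 5.27 in Epi, and 4.51 and 3.28 in MN cultures, then 5.58, 4.36, 3.91, 5.90 and 6.09 in the same order. The SD of the S level over cells was 0.19 and 0.20 in 2i, 0.55 and 0.31 in serum, 0.57 and 0.72 in Epi, 1.76 and 1.60 in MN cultures, and 0.24 in both E5.5 groups. For the G2/M level it was 0.31 and 0.34 in 2i, 0.65 and 0.49 in serum, 0.61 and 1.17 in Epi, 2.02 and 2.30 in MN cultures, and 0.15 and 0.27 at E5.5. Cells in 2i and at E5.5 therefore sat in a tight cloud, and MN cells were spread along a line from low to high in both levels.

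**Figure D2:**
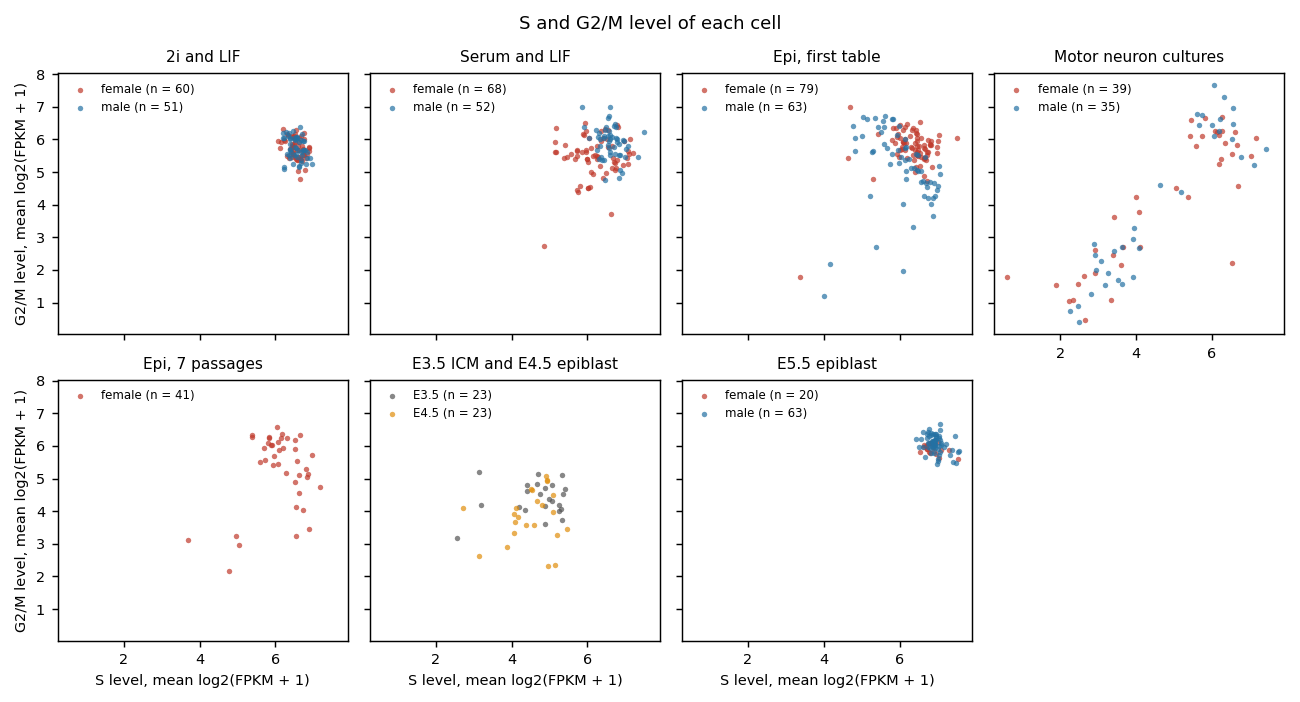
S level (x axis) and G2/M level (y axis) of each cell, both as mean log2(FPKM + 1) over members, in 7 panels by state, coloured by line or stage. The cells of 2i and E5.5 form compact clouds, Epi cells fan out downward at a high S level, and MN cells run along a diagonal.

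The direction of the relation between S and G2/M level across cells also differed in sign. Pearson r (a description over the cells of 1 culture, which share its medium and table) was -0.33 (n = 60) and -0.25 (n = 51) in 2i, 0.15 (n = 68) and -0.28 (n = 52) in serum, and 0.32 (n = 79) and -0.12 (n = 63) in Epi. It was 0.26 in 7-passage Epi (n = 41), 0.17 at E3.5 and 0.14 at E4.5 (n = 23 each), and -0.47 (n = 20) and -0.35 (n = 63) at E5.5. In the MN cultures it was 0.86 (n = 39) and 0.92 (n = 35). So 6 of 13 groups were below 0. Without cells that had fewer than 25 G2/M members at 1 FPKM or more, 11 of 13 were. That limit uses the G2/M members themselves. Leaving out 1 cell gave -0.01 in female serum and -0.21 at E3.5, and leaving out 3 gave -0.30 in 7-passage Epi. In the male MN culture r was -0.09 with 19 cells left out. Female MN (0.42, 17 left out) and E4.5 (0.39, 2 left out) stayed above 0. With each cell rescaled to the same FPKM sum, 3 of 13 groups were below 0, and r in 2i was 0.14 and 0.08 in place of -0.33 and -0.25, so the negative sign in 2i was lost on rescaling. With levels relative to each member's mean, 8 of 13 groups were below 0. The 2 runs of numbers in the cell titles, which the labels do not explain, gave r of -0.49 and 0.63 in female Epi and 0.22 and -0.65 in male Epi. Over both runs, r was -0.23 without the 1 female Epi cell of fewer than 25 G2/M members. Without 4 such male Epi cells it was -0.70. The single runs were not recomputed without these cells.

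Single members followed their own group. In the 6 ES and Epi cultures of the main table each member was correlated across cells with the S level and the G2/M level, itself left out. The median r was 0.57 with the own and -0.09 with the other level for G2/M members, and 0.51 and -0.04 for S members. The own level had the higher r in every one of the 6 cultures for 32 of 33 G2/M members and 19 of 26 S members. Ube2c (0.79 own, -0.22 other) and Ccnb1 (0.78 and -0.29) tracked the G2/M level most closely, followed by Nusap1 and Aurka (0.71 each), a spindle protein and a centrosome kinase, and Cdk1 (0.68). Hmgb2 (0.23) and Nuf2 (0.27), part of the kinetochore's microtubule grip, tracked it least. Of the S members, the helicase subunits Mcm4 and Mcm6 and the reductase subunit Rrm2 had 0.69, Ung 0.62 and Pcna 0.61. At the low end were Pola1 (0.14), the thymidylate synthase gene Tyms (0.24), Hells and Cdca7 (0.29 each) and the checkpoint adaptor Clspn (0.30). Of the members with printed promoters, Ube2c, with TTTGAA, and Ccnb1, without these letters, lay side by side at the top. Hmgb2, with TTTGAA, lay at the bottom.

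**Figure D3:**
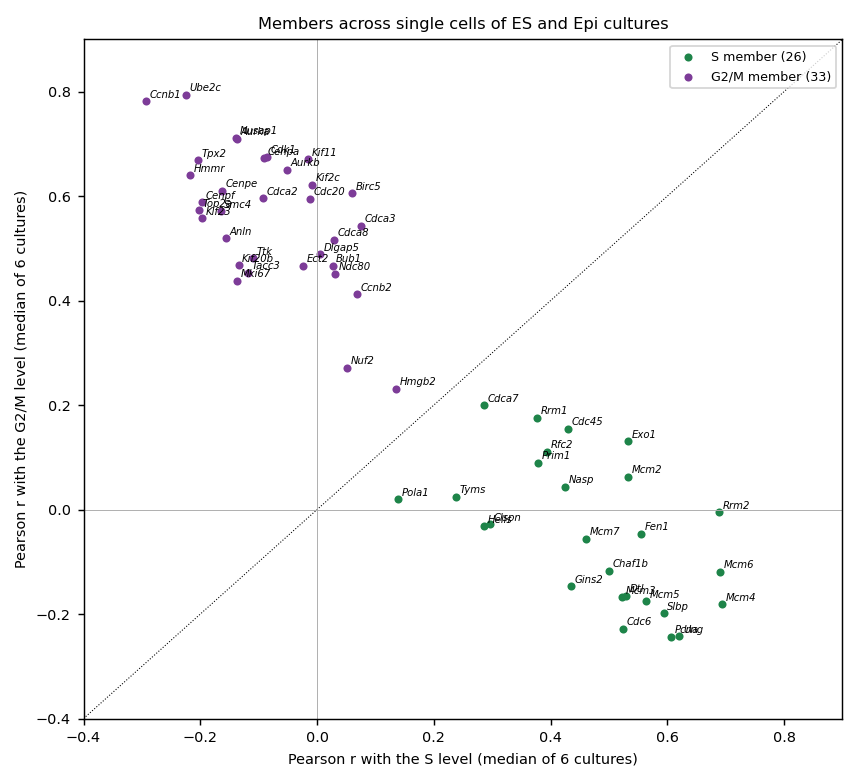
Median Pearson r over 6 ES and Epi cultures of each member with the S level (x axis) and with the G2/M level (y axis) of the cells, itself left out. G2/M members lie above the diagonal and S members below it, with Cdca7, Hmgb2 and Pola1 nearest to it.

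Of 7233 genes averaging 10 FPKM or more, a number that includes members, the non-members were ranked by likeness to the S level. Pearson r was taken over 447 cells of the main table, centred within each culture. The closest non-members included Uhrf1 (r = 0.73), Atad2 (0.72), Cdt1 (0.72) and Tipin (0.71). For the G2/M level they were Plk1 (0.84), Kif20a (0.82), Ccna2 (0.80), Kif22 (0.77) and Ckap2l (0.76). Levels were centred but not scaled, so the MN cells weigh heavily in these r values. The SD of the S level was 1.76 and 1.60 in the MN cultures and 0.19 to 0.72 in the others. In MN cells the S and G2/M levels rose together (r of 0.86 and 0.92). How far these r values reflect phase was not tested.

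For changes of state, a culture was its cells' mean FPKM, and limma was fitted on log2(mean FPKM + 1) to all 8 cultures of the main table and 15504 genes, with 2 cultures a state. Called genes had an adjusted p (Benjamini-Hochberg, over all genes) under 0.05 and differed by 1 or more on the log2 scale. The p-values measure the spread between 2 lines, each of 1 culture per state, pooled over all states. The Epi pair enters this spread in every comparison, and its female culture held naive markers. With the 7-passage female Epi culture, from a separately normalised table, in its place, 33 genes were called higher and 81 lower in serum against 2i. None of them was a member. Serum against 2i asks whether the phase genes differ between both ES media. No member was called, against 0.0193% of all genes (3 of 15504), and none had an unadjusted p under 0.05 in limma, the smallest adjusted p being 0.53. The median log2 change was -0.05 over S members, 0.06 over G2/M members and 0 over all genes.

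The widest difference between the media was that of Cdc20. It averaged 214 and 183.5 FPKM in female and male 2i cells and 296 and 332 in serum cells, with no overlap between the pairs. The limma log2 difference was 0.66 ± 0.29 (SE, n = 2 cultures each, adjusted p = 0.53). Tyms was at 139.4 and 142.7 FPKM in 2i and 109.05 and 101.8 in serum, a log2 difference of -0.42 ± 0.19, again with no overlap. The mitotic genes Hmmr (0.56), Dlgap5 (0.54), Ect2 (0.42), Ccnb2 (0.38) and Bub1 (0.38) lay higher in serum in both lines and Kif20b (-0.49) lower, none of them called. Of the S members, the histone chaperones Nasp (0.40) and Chaf1b (0.37) and the remodeller Hells (0.36) lay higher in both lines, and the helicase subunits Mcm5 (-0.39) and Mcm3 (-0.36) lower. Female and male lines differed in sign for 13 of 26 S and 14 of 33 G2/M members, and of all 15504 genes 10827 had the same sign in both.

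Epi against serum follows the step from naive to primed cells. No member was called, against 0.0387% of all genes (6 of 15504), none had an unadjusted p under 0.05, and the smallest adjusted p was 0.73. The median log2 change was -0.12 over S members and -0.09 over G2/M members, beside 0.12 over all genes. The lines went different ways: the S median was 0.10 in the female and -0.28 in the male line, the G2/M median 0.13 and -0.33, and 16 of 26 S and 23 of 33 G2/M members had opposite signs, while 8911 of all 15504 genes had the same sign. The female Epi culture is the one that held naive markers. Pola1 was at 19.2 and 13.8 FPKM in female and male serum cells and 13.2 and 4.49 in Epi cells, a log2 difference of -0.97 ± 0.51 (SE, n = 2, limma adjusted p = 0.73). Hells was at 610 and 858 FPKM in serum and 573 and 331 in Epi, a difference of -0.73 that came almost wholly from the male line. Ccnb1 was at 51.1 and 61 FPKM in serum and 53.2 and 33.2 in Epi, a log2 difference of 0.06 in the female and -0.86 in the male line.

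With the 7-passage female Epi culture in place of the other, Pola1 alone of the 59 members was called, and it fell, with a log2 change of -1.66 and an adjusted p of 0.040 in limma. In that fit 5.49% of all genes were called (848 of 15447), so 1 of 59 was below the background share. The medians were -0.17 over S and -0.18 over G2/M members, against 0.17 over all genes, with 17 of 26 and 24 of 33 members below 0. The 7-passage culture comes from a separately normalised table. Without replicates, the female Epi cultures differed most in Pola1 (13.2 and, after 7 passages, 4.49 FPKM, a log2 ratio of -1.37), Hells (573 and 334 FPKM, -0.77), Prim1, the primase partner of Pola1 (-0.77), and the spindle gene Hmmr (32.1 and 17.2 FPKM, -0.86). Tyms (0.60) and Nuf2 (0.58) lay highest on the other side. The male Epi culture and the 7-passage female one had the same mean Pola1 level of 4.49 FPKM.

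MN cultures against serum ask what happens to phase genes when the lines are taken toward neurons that no longer divide. Over all cells of the cultures, 4 of 26 S members and 1 of 33 G2/M members fell and none rose. Of all genes 32.8% were called (5088 of 15504), 30.1% as higher and 2.7% as lower. The median log2 change was -0.64 over S members, -0.39 over G2/M members and 0.71 over all genes. Below 0 were 20 of 26 S and 25 of 33 G2/M members, beside 27.8% of all genes. In these culture means, fewer cycling cells and less RNA per cell cannot be told apart.

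Cdca7 was at 86.9 and 115.97 FPKM in female and male serum cells and at 21.9 and 15.1 in MN cells. It fell by 2.4 ± 0.30 on the log2 scale (SE, n = 2 cultures each, limma adjusted p = 0.0038), and its call was kept under all 21 alternatives. Its partner Hells went from 610 and 858 FPKM to 240 and 107, a log2 change of -2.17 ± 0.44 (adjusted p = 0.013). Ung went from 90.9 and 126.005 to 39.4 and 9.59 FPKM, -2.39 ± 0.60 (0.025). The helicase subunit Mcm2 went from 111.1 and 149.2 to 49.9 and 44.2 FPKM, -1.44 ± 0.26 (0.0086). Hmgb2 went from 27.5 and 35.1 to 12.2 and 10.2 FPKM, -1.40 ± 0.24 (0.0077). In all 5 genes the serum and MN cultures did not overlap, which also held for uncalled members such as Mcm3, Mcm4 and Fen1. The share of all genes without overlap was not computed. Mcm2 and Hmgb2 missed the adjusted p without the male serum culture (0.059 and 0.057), Hells without either serum culture or with only the 4 cultures compared, and Ung under 6 of 21 alternatives.

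Other S members came near the threshold. Nasp (-0.99), Chaf1b (-0.94), Mcm5 (-0.92), Mcm6 (-0.88), Pcna (-0.75) and the nuclease gene Exo1 (-0.70) had limma adjusted p-values of 0.016 to 0.039 and log2 changes smaller than 1. Not every S member lay lower. The origin licensing factor Cdc6 (0.51), Tyms (0.34), Slbp (0.30) and the clamp loader subunit Rfc2 (0.13) lay above 0 in both lines without a call. Among G2/M members Ect2 (-1.14, adjusted p = 0.071), which guides cell cleavage, Bub1 (-0.87), Cenpf (-0.77), Cdc20 (-0.71), Top2a (-0.66) and Ccnb1 (-0.54) lay lower in both lines. Cdk1 was at 477 and 557 FPKM in serum and 401 and 543 in MN cells (-0.15). Tacc3, a spindle protein, lay highest (0.61, adjusted p = 0.051), and Smc4 followed (0.36). The mean of Mki67 was 5.13 and 6.53 FPKM in serum and 7.41 and 5.80 in MN cells.

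**Figure D4:**
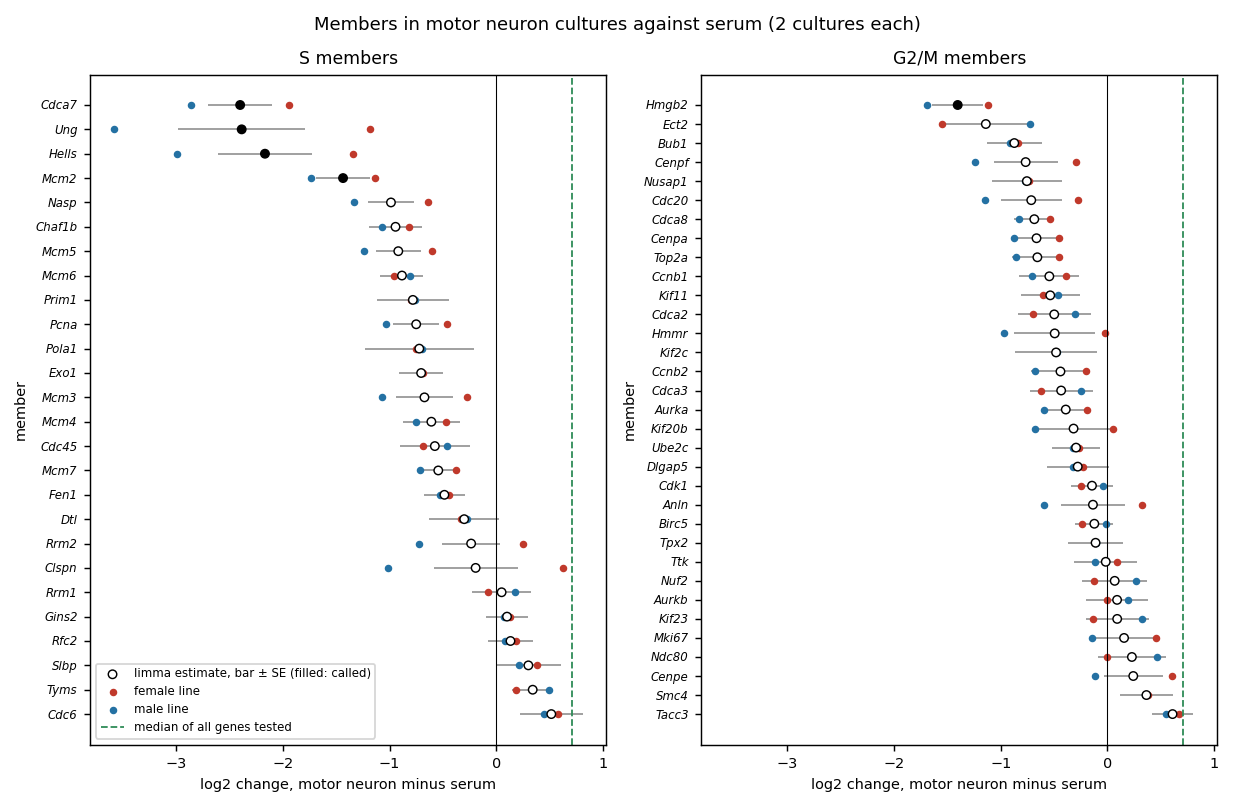
Log2 change of each member from serum to MN cultures, with the limma estimate ± SE (circle, filled where called), the female and the male line as points, and the median of all genes as a dashed line at 0.71. Only Cdca7, Ung, Hells, Mcm2 and Hmgb2 are filled, and no member's estimate reaches the dashed line.

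How many members fell differed with the scaling and the averaging. With log2 averaged over cells the counts were 18 S and 25 G2/M members lower, against 5.51% of all genes. With each cell rescaled to a sum of 1000000 they were 14 and 9, against 6.36%, and with upper-quartile scaling 17 and 19, against 10.4%. The median over all genes moved from 0.71 to 0.23, 0.14 and 0, and the share of called genes that were higher from 91.8% to 75%, 69% and 57.5%. Under those 3 settings the S median was -1.54, -1.09 and -1.48 and the G2/M median -1.73, -0.82 and -1.24, each below the median of all genes.

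The MN cultures held more than 1 kind of cell, so cells were split by marker genes, with limits set after the values were seen. Of 74 cells, 23 had a mean log2(FPKM + 1) over 8 neuron markers above 7 (7 female, 16 male). Of the rest, 30 had a mean of at least 3 over 8 endoderm markers (13 and 17), and 21 had neither (19 and 2). No neuron level lay between 6.22 and 8.27, 4 cells lay between 5 and 7, and the highest outside the MN cultures was 3.14. The median level of the microtubule regulator Stmn2 was 5177 FPKM in the neuron marker cells, 47 in endoderm marker cells and 122.5 in the remaining cells. Sox17 was at 11.8, 367 and 0.10 FPKM, and the pluripotency factor Pou5f1 at 0, 0 and 19.9 FPKM.

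Phase genes were lowest in the neuron marker cells. The median S level was 3.07 in neuron marker cells, 6.16 in endoderm marker cells and 5.37 in the remaining cells, and the median G2/M level 2.00, 6.06 and 4.51. A neuron marker cell had a median of 17 of 26 S and 16 of 33 G2/M members at 1 FPKM or more, an endoderm marker cell 25 and 33. Fewer than 25 G2/M members were found in 22 of 23 neuron marker cells, 6 of 30 endoderm marker cells and 8 of 21 remaining cells. The median number of genes detected was 9672, 8959 and 9832, and the median FPKM sum 1591108, 1232147 and 1278054; the part of these in the phase levels was not tested. All 26 S and all 33 G2/M members had a lower mean in neuron marker than in endoderm marker cells, within the female and within the male culture too, with median log2 differences of -2.22 and -2.88. The share and median over all genes were not computed for these classes, so the member counts have no background beside them. With a neuron limit of 5 the medians of the then 27 neuron marker cells were 3.35 and 2.26.

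**Figure D5:**
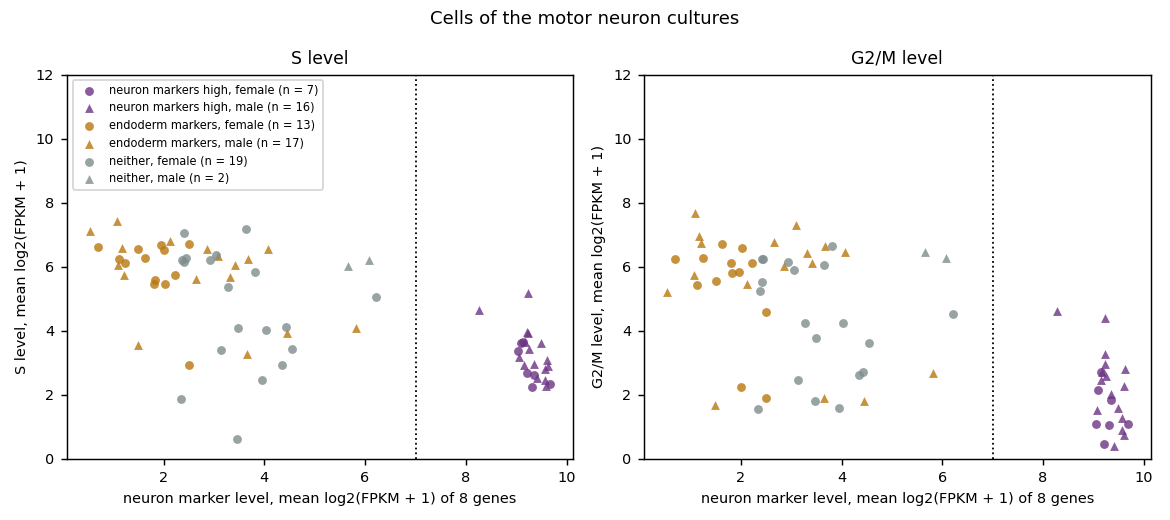
S level (left) and G2/M level (right) of each cell of the MN cultures against its neuron marker level, all as mean log2(FPKM + 1), with colour for the marker class, shape for the line and a dotted line at 7. The 23 cells to the right of the line lie at S levels of 2.23 to 5.18 and G2/M levels of 0.40 to 4.61, and most others lie above.

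Cdk1 averaged 69.7 ± 88.4 FPKM (SD) in 23 neuron marker cells, 815 ± 582 in 30 endoderm marker cells and 408 ± 377 in 21 remaining cells, beside 512 in serum. Thus its near-equal culture means in serum and MN cells covered cells far below and cells above the serum level. Ccnb1 was at 5.81, 58.1 and 44.7 FPKM, Mki67 at 0.72, 12.0 and 5.55, and Tacc3 at 25.3, 288.4 and 192.3. Nuf2 was at 1 FPKM or more in 1 of 23 neuron marker cells (4.35%) and in 24 of 30 endoderm marker cells (80%). Cdc45, part of the active helicase, was found in 2 of 23 (8.70%) and 26 of 30 (86.7%). In under 50% of neuron marker cells stood 7 of 26 S and 18 of 33 G2/M members.

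Some S members were found in every neuron marker cell. Slbp, Rfc2, Nasp and Pcna were at 1 FPKM or more in all 23, and no G2/M member was. Slbp averaged 180 ± 80.1 FPKM there, 276.5 ± 134.3 in endoderm marker cells and 165.6 in serum, and Rfc2 94.6, 131.6 and 102.8. Neither was called against serum in neuron marker cells. Nasp (70.1, 133.3 and 236.7 FPKM) and Pcna (33.6, 86 and 107.3) were called lower there, with limma log2 differences of -1.74 (adjusted p = 0.0011) and -1.87 (adjusted p = 0.0044). Cdca7 (6.51, 22.6 and 99.5 FPKM), Hells (31.3, 231.2 and 718) and Ung (4.90, 26.4 and 106.1) were below serum in endoderm marker cells as well, and in the remaining cells they averaged 26.4, 259.8 and 46 FPKM. The highest G2/M level of a neuron marker cell was 4.61, in a male cell with 24 of 33 members, 6744 genes and the lowest neuron level of its class (8.27). The next, 4.40, was a male cell with 32 members and 12914 genes.

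When only the neuron marker cells stood for the MN cultures, 23 of 26 S and all 33 G2/M members fell against serum in limma, beside 9.99% of all genes called lower. The medians were -2.39 and -3.03, against 0.75 over all genes. Rrm1 (-0.86), Rfc2 (-0.14) and Slbp (-0.0036) were not called. Cdk1 went from 477 and 557 FPKM to 31.7 and 86.4, a log2 change of -3.27 ± 0.43 (SE, n = 2, adjusted p = 0.0017), and Ccnb1 from 51.1 and 61 to 2.94 and 7.06, -3.33 ± 0.41 (0.0013). Exo1 (-4.69), Hells (-4.39), Ung (-4.08), Cdc45 (-4.06), Bub1 (-3.99) and Cdc20 (-3.79) were among the widest. The female mean rests on 7 cells. Without the neuron marker cells 4 S members fell, beside 2.15% of genes lower: Cdca7 (-2.05, adjusted p = 0.0091), Ung (-1.99), Hells (-1.70) and Mcm2 (-1.02). Of the G2/M members, none fell and Tacc3 rose (1.13, adjusted p = 0.030), beside 17.4% of genes higher. The medians were then -0.17 for S and 0.10 for G2/M members, against 0.45 over all genes.

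Embryo stages were 1 group each, in separate tables for the blastocyst and for E5.5, so values are given with no test. From E3.5 to E4.5 the median log2 ratio was -0.09 over S members and -0.50 over G2/M members, beside -0.08 over all genes, and 5 of 26 and 5 of 33 were above 0. With each cell rescaled to the same FPKM sum the medians were 0.10, -0.28 and 0.17, so the sign of the S median turned. Without the E3.5 cell of the large FPKM sum, a choice made after the values were seen, the medians were -0.13, -0.39 and -0.04, with 8 of 26 and 7 of 33 above 0, against 47.7% of all genes. In that form Cdca7 (17.8 ± 12.2 and 9.29 ± 10.2 FPKM, -0.87), Clspn (-0.74) and Dtl (-0.73) were the lowest S ratios and Slbp (0.52) the highest. Of the G2/M members Cdca2 (17.9 ± 12.6 and 6.78 ± 5.64 FPKM, -1.28), Hmmr (-1.13) and the spindle assembly factor Tpx2 (-0.85) were the lowest, and Cdk1 (254.1 ± 150.97 and 143.1 ± 123.2 FPKM) had -0.82. Top2a (0.36), Cenpf (0.18) and Ccnb1 (0.17) were the highest. With that cell in, Smc4 (-4.46), Bub1 (-4.15), Kif23 (-2.68) and Dtl (-1.66) had the widest ratios, and all 4 came closer to 0 without it. Cell SDs were as large as these differences.

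E5.5 cells had all 26 S and all 33 G2/M members above E4.5, in both sexes. Median log2 ratios of male E5.5 cells to E4.5 cells were 2.13 for S and 1.84 for G2/M members, beside 0.99 over all genes, of which 75.5% were above 0. For female cells they were 2.06 and 1.58, beside 1.02 and 77.2%. With each cell rescaled to the same FPKM sum the male medians were 1.29, 1.34 and 0.32. The female medians were then 1.21, 0.95 and 0.32. The median FPKM sum per cell was 511794 at E4.5, and 995182 and 1027092 in male and female E5.5 cells. Strain and table changed together with the stage, so these cannot be told apart. Cdca7 was widest, at 9.29 ± 10.2 FPKM at E4.5 and 203.6 ± 54.4 in male and 172.1 ± 74.7 in female E5.5 cells (ratios of 4.31 and 4.07). Among S members the clamp Pcna was at 19.5 ± 11.5, 170.4 ± 32.5 and 151.5 ± 22.6 FPKM (3.06 and 2.89). Aurkb, the kinase that corrects spindle attachment, was at 14.7 ± 16.5, 141.4 ± 53.3 and 134.3 ± 47.9 FPKM (3.18 and 3.11). Of the rest, Bub1 (2.89 in male cells), Cdca2 (2.79), Cdc20 (2.75) and Mcm2 (2.72) had wide ratios, and Anln (0.22), which scaffolds the cleavage furrow, and Pola1 (0.96) the narrowest. The endoderm markers of the E5.5 groups, at summed means of 2342 and 650 FPKM against 60.2 at E4.5, moved with this step, and their part in it was not tested.

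Female and male groups were compared as ratios of means, 1 group a sex and no test. In serum, the female culture lay below the male one in 24 of 26 S and 32 of 33 G2/M members, with medians of -0.33 and -0.37, beside 40% of all genes above 0 and a median of -0.10. Rescaled cells gave -0.23 and -0.25. Clspn (19.6 and 35.7 FPKM, -0.83), Slbp (-0.70), Kif2c (24.3 and 41.9 FPKM, -0.76) and Cenpf (-0.69) were widest, and Pola1 (0.44), Tyms (0.10) and Top2a (0.08) were the 3 members above 0. In 2i the medians were -0.03 and -0.04, with Pola1 at 22.3 ± 9.92 FPKM in female and 13.5 ± 5.38 in male cells (0.68). In Epi they were 0.13 and 0.24, with 27 of 33 G2/M members above 0 beside 50.3% of all genes, led by Pola1 (1.37), Prim1 (1.00) and Hmmr (0.91), and Cdc45 (-0.73) lowest. The female Epi culture here is the one that held naive markers. With the 7-passage female culture in its place the Epi medians were 0.02 and 0.04 (-0.06 and -0.05 with rescaled cells), and 18 of 33 G2/M members were above 0. In MN cultures Ung (39.4 and 9.59 FPKM, 1.93) and Hells (1.16) were highest and Ect2 (-1.07) lowest, where 45.7% of male and 17.9% of female cells were neuron marker cells. At E5.5 the medians were -0.11 and -0.19, with Nusap1 (50.4 and 82.5 FPKM, -0.70) lowest and Cdc6 (0.45) highest.

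Further lists of cell cycle genes give the rest of the pathway. In MN cultures against serum, where 30.1% of all genes rose and 2.7% fell (median log2 change 0.71), 4 of 19 other S genes fell and none rose (median -0.59). Of 22 other G2/M genes 1 rose and 1 fell (median 0.10), and of 26 cell cycle regulators such as E2F, Rb and MuvB genes 2 rose and 2 fell (0.20). No gene of the 3 lists was called in serum against 2i or in Epi against serum; at an unadjusted p under 0.05 in limma there were 2, 2 and 3 in the first and 0, 1 and 1 in the second comparison, beside 1549 and 1000 of all 15504 genes.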

How the data were processed

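Single-cell RNA libraries were prepared with the SMART-seq2 method and Tn5, per the labels' protocols. The authors deposited FPKM per gene and cell in 4 separately normalised tables. The submitters' processing notes name STAR 2.4.1, Cufflinks, Cuffnorm 2.2.1 and mm10, with no roles. In 356 values a low line in the exponent was read as a minus sign (largest 9.7552e-05 FPKM). Members and lists were chosen with earlier results of these data known, and symbols were matched through Ensembl IDs.

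Cells were averaged per culture, and limma 3.58.1 (R 4.3.3, trend) was fitted to log2(mean FPKM + 1) of 8 cultures over genes averaging 1 FPKM or more, with 4 residual degrees of freedom, and was tested on simulated data. A log2 change on this scale understates changes of low genes. Labels say that Epi and MN cells came from the same pair of lines, so lines pair across states, and the line as a block was an alternative. Female deviations correlated between states with r of 0.06 to 0.16. In each comparison with a test, named genes were called members, then up to 6 S and 8 G2/M members by size of change with the same sign in both lines, and preset representatives. Other named members were chosen after their values were seen. Of the non-members most like a level, 1 is not reported here. Where there was no test, the 3 highest and lowest ratios of each group were taken. Alternatives were pseudocount, filter, averaging, scaling, runs of titles, block, sample set, fold threshold and left-out cultures. Shares have exact Clopper-Pearson intervals (scipy 1.17.1). The number of genes detected stands for depth, which FPKM does not give.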

Additional observations from a re-analysis of the deposited data

Results flagged for a closer look

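Changes of the 2 lines with opposite signs are listed here, and none of these differences between the lines was tested, because each line has 1 culture per state. From 2i to serum the median log2 change over the 26 S members was -0.15 in the female and 0.14 in the male line, and over the 33 G2/M members -0.11 and 0.24. From serum to Epi the S medians were 0.10 and -0.28 and the G2/M medians 0.13 and -0.33. Both pairs share the serum cultures, where the female line lay below the male one in 24 of 26 S and 32 of 33 G2/M members. Of single members with changes of at least 0.5 in each direction, Kif2c, a motor that takes microtubules apart, had 0.65 in the female and -0.55 in the male line from serum to Epi. Clspn had 0.63 and -1.02 from serum to MN cultures, where the female culture had fewer neuron marker cells (7 of 39) than the male one (16 of 35). Without the neuron marker cells the Clspn changes were 0.88 in the female and -0.40 in the male line. In neuron marker cells alone they were -2.56 and -2.48. The part of these cells in the difference was not tested.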

How the results depend on the processing

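No member was called in serum against 2i under any of 21 alternatives. In Epi against serum only the 7-passage culture gave 1 call. Few genes of any kind were called in serum against 2i, so the lack of member calls there cannot show that the members are unchanged. Of all genes, none were called with a pseudocount of 0.1 FPKM, with the line as block or with only the 4 cultures compared. The most were 11 higher and 213 lower, with log2 averaged over cells. For MN cultures against serum, S calls were 18 with log2 averaged over cells, 14 with rescaled cells and 17 with upper-quartile scaling. They were 2 with only the 4 cultures compared and 10 with no fold threshold. Of all genes, 419 were called lower in the main fit, 319 with only the 4 cultures compared and 573 with no fold threshold. Under the 3 scalings 855, 971 and 1611 of all genes were called lower. G2/M calls were 25, 9 and 19 under the 3 scalings, 2 with the higher title run, 2 with the 7-passage culture, 4 with no fold threshold and 0 to 3 with a culture left out (0 without male serum, 2 without female MN, 3 without male MN). Neuron marker cells alone gave 23 S and 33 G2/M calls. With the line as replicate block the counts stayed at 0, 0, 4 and 1. All 14 member estimates above 0 over all MN cells turned negative in neuron marker cells alone. Those then called were Tyms -1.76, Gins2 -2.13, Cdc6 -2.26, Ndc80 -2.33, Nuf2 -3.96, Mki67 -1.97, Tacc3 -3.43, Smc4 -1.54, Kif23 -2.48, Aurkb -1.78 and Cenpe -1.63. Those called lower with log2 averaged over cells were Ndc80 (-1.04), Nuf2 (-1.36), Kif23 (-1.45) and Aurkb (-1.43). Uncalled estimates near 0 changed sign under other settings too, that of Rrm1 under 6 of 21. The number of groups with r below 0 between S and G2/M level went from 6 to 3 with rescaled cells. It went to 8 with levels relative to each member's mean and to 11 without cells of fewer than 25 G2/M members. The cause was not tested. Members present in at least 90% of cells made up 666 of 767 pairs at 0.1 FPKM and 537 at 5 FPKM. Depth per cell is unknown, so values near 1 FPKM are imprecise.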
